A study of Mus musculus with 18 samples.

Results

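The tumour suppressor p53 switches on a set of genes that halt the cell cycle, feed back on p53 itself or start cell death, and 10 of its direct targets were followed here in blood stem cells that were taken fresh or cultured at pH 7.4 or pH 6.9. The members were chosen by symbol, as targets for arrest, feedback and death, and are Cdkn1a, Mdm2, Ccng1, Phlda3, Trp53inp1, Zmat3, Bax, Bbc3, Eda2r and Aen. They are 10 of the 21003 gene symbols in the count table, and all 10 had counts. Long-term haematopoietic stem cells, abbreviated LT-HSCs, are the rare marrow cells that can renew every blood lineage, and 100 of them went into each library, with 6 libraries in each of 3 groups. All groups were wild type and came from mice of 8 to 12 weeks, whose strain one label gives as B6.SJL and another as c57 B6. The fresh group was an uncultured control labelled pH 7.4. The other groups spent 48 h at 37 °C in IMDM with 10% FBS, mSCF, GCSF and mTPO at 50 ng/ml, under 5% CO2 and 3% O2, at pH 7.4 or in medium calibrated to pH 6.9. The labels do not say whether cells were sorted again after culture, so a group may hold the progeny of the sorted cells.

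In unstressed cells p53 is kept low because Mdm2 tags it for destruction, and damage or stress frees it to bind its targets. In blood stem cells p53 is known for its part in dormancy and in removing damaged cells, and p21, the protein of Cdkn1a, is the target that stops the kinases of the cell cycle. The RNA of p53 (Trp53) need not change for its targets to move, since p53 is controlled largely as a protein.

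Of the 18 libraries, 15 held 1640817 to 7508120 counts and 11225 to 12792 genes with a count. The other 3 stood apart. Fresh replicate 1 held 6311 counts, where a single count is worth 80.2 CPM (counts scaled to a library of 1000000), fresh replicate 4 had 9408 genes with a count and pH 6.9 replicate 3 had 8925. Replicate numbers come from the sample titles and were taken as mouse numbers. In each group the odd-numbered mice carry 1 first index (701 in fresh, 707 at pH 7.4, 705 at pH 6.9) and the even-numbered mice another (702, 708 and 706). Each comparison is therefore given over all mice, with 18 libraries, and then separately for the odd-numbered and the even-numbered mice, with the 15 libraries. Within each of these sets the index differs along with pH, so pH and index cannot be told apart there. The files hold no check of which culture each index carried, so every direction within a set rests on the labels, and an exchange of index labels between the cultures was not tested. LT-HSC markers were present in every one of the 15 libraries, with 13 to 15 of 15 genes at a count. Levels are CPM after TMM scaling, which do not correct for gene length, so they are compared between libraries and never between genes. In bulk RNA, fewer cells that express a gene and less RNA per cell cannot be told apart.

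Cdkn1a (ENSMUSG00000023067.14, chr17:29090976-29100727, plus strand, GRCm38) encodes p21, which binds cyclin-dependent kinases and arrests the cell. Its level did not follow pH alone. It was high at pH 7.4 in odd-numbered mice and at pH 6.9 in even-numbered mice, and lower in the other sets. In odd-numbered mice it stood at 96.6 and 86.5 CPM in fresh cells (replicates 3 and 5), at 206, 397 and 228 CPM at pH 7.4 (replicates 1, 3 and 5) and at 109 and 80.3 CPM at pH 6.9 (replicates 1 and 5). All 3 libraries at pH 7.4 lay above the fresh and the pH 6.9 libraries of these mice, while fresh and pH 6.9 overlapped. In even-numbered mice it stood at 40.8 and 71.0 CPM in fresh cells (replicates 2 and 6), at 60.3, 75.9 and 57.6 CPM at pH 7.4 and at 221, 281 and 282 CPM at pH 6.9 (replicates 2, 4 and 6). Here the 3 libraries at pH 6.9 lay above all others, and fresh and pH 7.4 overlapped. The 3 libraries that stood apart had 0 CPM in fresh replicate 1, 169 in fresh replicate 4 and 150 in pH 6.9 replicate 3. The 0 of fresh replicate 1 allows up to 241 CPM, which is the worth of 3 counts there, so it places Cdkn1a nowhere on this scale. Fresh replicate 4 lay above the other fresh libraries, and pH 6.9 replicate 3 lay between the odd-numbered and the even-numbered libraries of its group.

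Ordered by mean, the sets were pH 7.4 odd at 277 ± 104 CPM (SD, n = 3), pH 6.9 even at 261 ± 35.3 (n = 3), pH 6.9 odd at 94.8 ± 20.4 (n = 2), fresh odd at 91.5 ± 7.12 (n = 2), pH 7.4 even at 64.6 ± 9.92 (n = 3) and fresh even at 55.9 ± 21.3 (n = 2). The first 2 sets differed by less than their spread. So did pH 6.9 odd and fresh odd, and pH 7.4 even and fresh even. AC167363.2, an unclassified transcript that GENCODE M21 places on the opposite strand, overlaps the span of Cdkn1a. Reads from any bases they share cannot be told apart, because the library kits keep no strand. Whether they share exons was not examined.

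**Figure D1:**
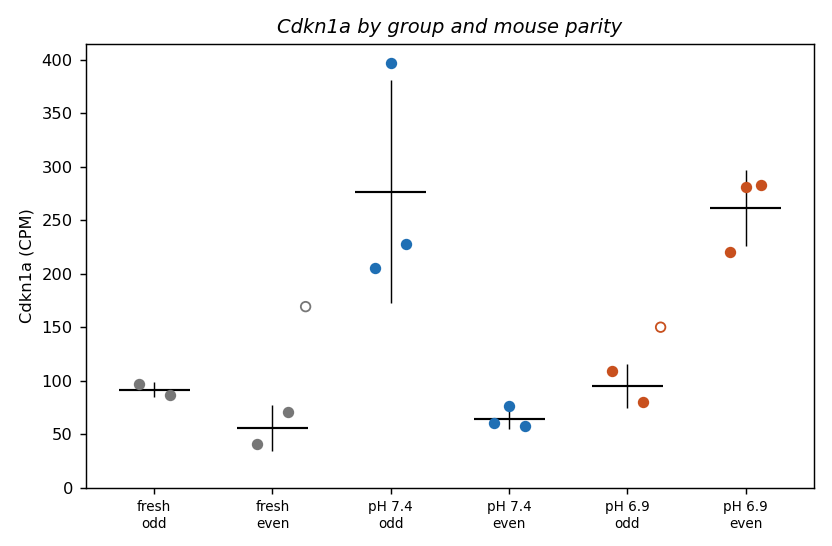
Cdkn1a in CPM for each library, by group and mouse parity. Filled points are the 15 libraries used within sets of mice, lines are their mean and SD, and open points are fresh replicate 4 and pH 6.9 replicate 3 (fresh replicate 1 is not drawn). The libraries of pH 7.4 odd (206 to 397) and pH 6.9 even (221 to 282) lie above all other filled points.

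RefSeq lists 2 start sites for Cdkn1a on GRCm38.p6. The window of the upstream one, from 250 bases before the start to 50 after (chr17:29090729-29091028, plus strand), is shown because it was the only 1 among the windows of the members with the core pair CATGNNNNNNCATG. Capitals mark 2 matches to the p53 half-site consensus, a 10-base motif, that begin 73 and 51 bases before the start. They also mark that core pair, which begins 48 bases before it and overlaps the second match.
Cdkn1a: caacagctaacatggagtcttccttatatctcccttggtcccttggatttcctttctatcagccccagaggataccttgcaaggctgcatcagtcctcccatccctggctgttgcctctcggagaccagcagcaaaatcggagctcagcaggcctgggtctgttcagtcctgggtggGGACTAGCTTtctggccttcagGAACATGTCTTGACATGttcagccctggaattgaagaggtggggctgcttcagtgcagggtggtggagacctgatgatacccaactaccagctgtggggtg
The window of the downstream start (chr17:29093519-29093818) held neither motif. Promoter windows were found for 8 of the 10 members, 12 windows in all, and not for Trp53inp1 and Zmat3. Searched on both strands, the half-site consensus lay in 6 of the 12 windows (50.0%), from 5 of the 8 members, against 2745 of 32851 windows of all genes (8.36%). The 2 windows of Aen share 1 match. The core pair, which was chosen after the sequences were seen, lay in 1 of the 12 against 234 of 32851 (0.712%). With A or T allowed at each middle base of both cores, a pair lay in 4 of the 12 windows, those of Cdkn1a, Bbc3 and both of Aen, against 2371 of 32851 (7.22%). A match is a stretch of letters and was not measured as a binding site.

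Over all 6 mice, none of the 9 members that could be tested passed the threshold between any of the groups. Cdkn1a had mean ± SD levels over 6 libraries of 77.3 ± 57.0 CPM (fresh), 171 ± 134 (pH 7.4) and 187 ± 87.0 (pH 6.9), and its libraries overlapped in all 3 comparisons. Its log2 fold change was 0.14 ± 0.48 (SE) for pH 6.9 against pH 7.4 (edgeR quasi-likelihood test, adjusted p = 0.997), 0.94 ± 0.50 for pH 7.4 against fresh (adjusted p = 0.879) and 1.08 ± 0.51 for pH 6.9 against fresh (adjusted p = 1). The smallest adjusted p among the 9 was 0.997, 0.879 and 1 in these comparisons, and Eda2r did not pass the filter on low counts. edgeR called 0 of 10104 genes in each, so the background of genes called was 0%, 0% and 0%, with 254, 381 and 229 genes at an unadjusted p under 0.05. DESeq2 called 4, 0 and 0 genes and limma-voom 0, 0 and 0. The median log2 fold change of the 9 members was -0.10, 0.41 and 0.17, against -0.01, 0.08 and 0.02 over all genes tested. Each group serves in 2 of these comparisons, so they are not independent.

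Within odd-numbered mice, Cdkn1a, Mdm2 and Bbc3 were lower at pH 6.9 than at pH 7.4 and Eda2r was higher. Within even-numbered mice, Cdkn1a and Trp53inp1 were higher at pH 6.9. Cdkn1a fell by 1.57 ± 0.30 (log2, SE) in odd-numbered mice (edgeR adjusted p = 0.00386, 3 libraries against 2) and rose by 2.00 ± 0.26 in even-numbered mice (0.000495, 3 against 3). The difference between the changes of both sets was 3.57 ± 0.40 (adjusted p = 2.09e-05). This split of the mice was chosen with earlier results of these data known, which the p values do not take into account. Of 10 members tested in odd-numbered mice, 1 rose and 3 fell, where edgeR called 11.1% of 10659 genes. In even-numbered mice 2 rose and 0 fell, where 6.75% of genes were called. For the difference, 4 members passed, Cdkn1a, Mdm2, Trp53inp1 and Bbc3, all with a more positive change in even-numbered mice, where 18.1% of genes were called. The libraries of the 2 groups did not overlap for 7 of 10 members in odd-numbered mice, a state found for 38.5% of the genes tested, and for 4 of 10 in even-numbered mice, against 32.0%. The members had a median log2 fold change of -0.61 (odd-numbered) and 0.55 (even-numbered), against -0.08 and 0.04 over all genes. The fall of Cdkn1a was lost without pH 6.9 replicate 5 (adjusted p = 0.0513). With all 18 libraries in the fit the adjusted p was 0.175 for the fall (log2 -1.29), 0.303 for the rise (log2 2.02) and 0.0191 for the difference.

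**Figure D2:**
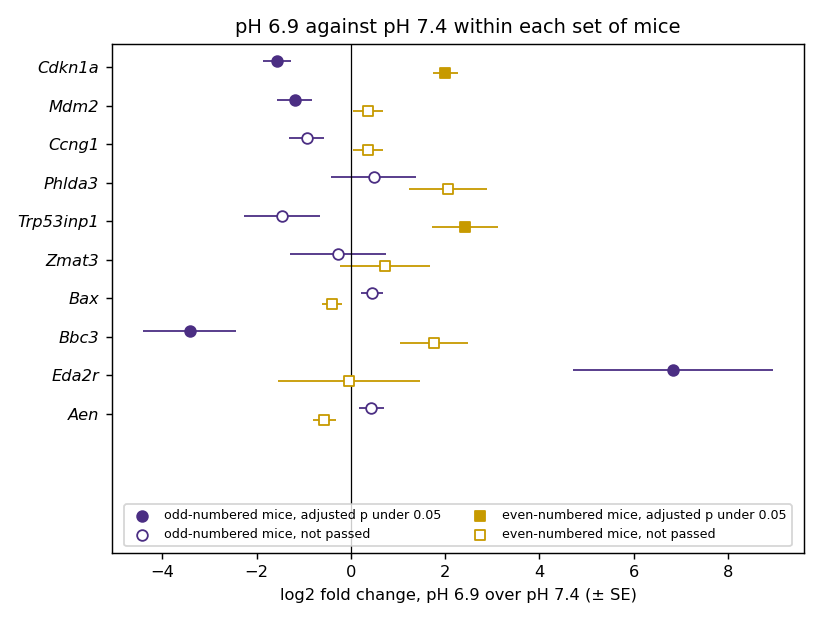
Log2 fold change of the 10 members at pH 6.9 over pH 7.4, with its SE, in odd-numbered mice (circles) and even-numbered mice (squares). Filled symbols passed an adjusted p of 0.05. Cdkn1a lies at -1.57 and 2.00. The point of Eda2r in odd-numbered mice (6.82) is set against a group with 0 counts and is no measure of size.

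Mdm2 and Ccng1 belong to the feedback on p53. Mdm2 (ENSMUSG00000020184.15, chr10:117688875-117710758, minus strand) encodes the ubiquitin ligase that marks p53 for degradation. Ccng1 (ENSMUSG00000020326.7, chr11:40748552-40755311, minus strand) encodes cyclin G1, which brings a phosphatase to Mdm2. Stretches of 60 bases of their promoters are shown because each holds 1 match to the half-site consensus (capitals), 186 bases before the start of Mdm2 (chr10:117710910-117710969, minus strand) and 185 before that of Ccng1 (chr11:40755437-40755496, minus strand, both GRCm38.p6).
Mdm2: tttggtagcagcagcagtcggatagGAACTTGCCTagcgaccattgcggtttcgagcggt
Ccng1: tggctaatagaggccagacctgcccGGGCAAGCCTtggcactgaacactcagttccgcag
In odd-numbered mice Mdm2 stood at 82.8 and 60.8 CPM in fresh cells, 97.3, 59.5 and 149 at pH 7.4 and 44.4 and 44.6 at pH 6.9. Both libraries at pH 6.9 lay below the 3 at pH 7.4 and below both fresh ones. In even-numbered mice it stood at 44.4 and 82.6 CPM in fresh cells, 91.9, 65.5 and 70.2 at pH 7.4 and 122, 65.0 and 111 at pH 6.9, with overlap between the groups. The log2 fold change between pH 6.9 and pH 7.4 was -1.19 ± 0.38 in odd-numbered mice (edgeR adjusted p = 0.0473) and differed between the sets of mice by 1.56 ± 0.49 (0.0329).

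The fall of Mdm2 sat near the threshold. Its adjusted p was 0.0508 with DESeq2's size factors, 0.108 with limma-voom, 0.0611 with the mouse number in the fit and 0.302 with 18 libraries. Leaving out a library of the compared sets gave 0.087 and 0.149 for pH 7.4 replicates 1 and 5, and 0.182 and 0.181 for pH 6.9 replicates 1 and 5. Leaving out a library of another set, which enters only through the shared spread and scaling, gave 0.0534 and 0.053 for fresh replicates 3 and 5, 0.0579, 0.0516 and 0.0612 for pH 7.4 replicates 2, 4 and 6, and 0.0529 and 0.0588 for pH 6.9 replicates 2 and 6. Its difference between the sets of mice had adjusted p of 0.0651, 0.0805 and 0.0656 without pH 7.4 replicate 4, 5 or 6, of 0.0848, 0.0719, 0.101 and 0.0736 without pH 6.9 replicate 1, 2, 5 or 6, and of 0.306 with 18 libraries.

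Ccng1 in odd-numbered mice stood at 138 and 82.8 CPM in fresh cells, 132, 167 and 122 at pH 7.4 and 72.8 and 74.2 at pH 6.9. As for Mdm2, both libraries at pH 6.9 lay below all others of these mice. In even-numbered mice the values were 48.5 and 114 CPM in fresh cells, 119, 95.2 and 85.3 at pH 7.4 and 131, 77.8 and 179 at pH 6.9, with overlap. Ccng1 did not pass in either set of mice or for their difference. In fresh replicate 4 and pH 6.9 replicate 3, which were left out of these sets, Mdm2 was 90.3 and 73.7 CPM and Ccng1 70.8 and 71.9.

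Phlda3, Trp53inp1 and Zmat3 act between arrest, survival signalling and stress. Trp53inp1 (ENSMUSG00000028211.11, chr4:11156431-11174379, plus strand) encodes a stress-induced protein of the p53 response with a part in autophagy. In even-numbered mice it stood at 0.638 and 9.74 CPM in fresh cells, 9.79, 10.5 and 3.17 at pH 7.4 and 26.1, 32.0 and 67.0 at pH 6.9. The 3 libraries at pH 6.9 lay above all others of these mice, with 1 of them well above the other two. In odd-numbered mice it stood at 3.49 and 5.03 CPM in fresh cells, 17.2, 16.93 and 20.6 at pH 7.4 and 1.23 and 10.4 at pH 6.9. Here the 3 libraries at pH 7.4 lay above the rest, as for Cdkn1a. The log2 fold change between pH 6.9 and pH 7.4 was 2.42 ± 0.70 in even-numbered mice (edgeR adjusted p = 0.0454) and differed between the sets by 3.88 ± 1.07 (0.0178), while odd-numbered mice did not pass (-1.46, adjusted p = 0.259).

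The rise of Trp53inp1 in even-numbered mice was lost with the mouse number in the fit (2.17, adjusted p = 0.0913) and with 18 libraries (0.878). Of the compared libraries, each was needed for the call. The adjusted p was 0.109, 0.0741 and 0.195 without pH 7.4 replicate 2, 4 or 6, and 0.0583, 0.0699 and 0.21 without pH 6.9 replicate 2, 4 or 6. Leaving out libraries of other sets gave 0.0517 and 0.0522 for fresh replicates 3 and 5, and 0.0576, 0.054 and 0.0505 for pH 7.4 replicates 1, 3 and 5. Its difference between the sets of mice did not pass without pH 6.9 replicate 1 (0.0634) or 6 (0.0547), nor with 18 libraries (0.13).

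Phlda3 (ENSMUSG00000041801.5, chr1:135766119-135769136, plus strand), whose protein restrains the kinase Akt, stayed between 1.27 and 13.1 CPM in the 15 libraries, from 4 to 68 counts. At pH 6.9 it was 9.87 and 4.66 CPM (odd-numbered mice) and 9.86, 1.80 and 13.1 (even-numbered mice). At pH 7.4 it was 2.86, 7.56 and 4.36 CPM and then 2.32, 2.28 and 1.27, in the same order, and in fresh cells 3.49 and 2.38 and then 1.28 and 4.08. The groups at pH 6.9 and pH 7.4 overlapped in both sets of mice. Zmat3 (ENSMUSG00000027663.12, chr3:32334792-32366014, minus strand), an RNA-binding zinc-finger protein, ranged from 0.560 to 9.50 CPM, both in pH 7.4 odd, on 4 to 41 counts. At pH 6.9 its 5 libraries lay between 1.92 and 5.62 CPM, within that range, and neither gene passed in any comparison.

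Bax, Bbc3, Eda2r and Aen belong to cell death. Bbc3 (ENSMUSG00000002083.13, chr7:16308393-16318205, plus strand) encodes PUMA, a BH3-only protein that unleashes Bax. At pH 6.9 it stood at 1.23 and 0.823 CPM in odd-numbered mice and at 15.7, 10.2 and 10.6 in even-numbered mice. At pH 7.4 it stood at 21.5, 8.40 and 1.98 CPM (odd-numbered) and 2.32, 5.14 and 3.01 (even-numbered), and in fresh cells at 5.58 and 3.44 (odd-numbered) and 3.19 and 5.34 (even-numbered). Its pH 6.9 libraries were thus the lowest of the odd-numbered mice and the highest of the even-numbered mice, without overlap, on 2 to 60 counts per library. The log2 fold change between pH 6.9 and pH 7.4 was -3.41 ± 0.99 in odd-numbered mice (edgeR adjusted p = 0.0327) and 1.76 ± 0.72 in even-numbered mice (0.159), and the difference was 5.17 ± 1.22 (0.00644). The fall was lost with limma-voom (0.071), with the mouse number in the fit (0.104), with 18 libraries (0.124), and without pH 7.4 replicate 1 (0.136), pH 6.9 replicate 1 (0.109) or pH 6.9 replicate 5 (0.194). The difference was lost with 18 libraries (0.0594).

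Bax (ENSMUSG00000003873.11, chr7:45461697-45466898, minus strand) encodes the protein that opens the outer mitochondrial membrane. It moved less than Cdkn1a and with opposite sign. In odd-numbered mice it stood at 134 and 194 CPM in fresh cells, 112, 139 and 142 at pH 7.4 and 187 and 171 at pH 6.9, so that pH 6.9 lay above pH 7.4. In even-numbered mice it stood at 221 and 156 CPM in fresh cells, 156, 178 and 134 at pH 7.4 and 144, 116 and 97.9 at pH 6.9, with overlap between the cultures. Neither set passed (log2 0.44, adjusted p = 0.238, and -0.41, adjusted p = 0.28). Fresh replicate 4 and pH 6.9 replicate 3, left out of these sets, held 448 and 467 CPM, above every other library. The span of Gm45808, a protein-coding gene model on the same strand, overlaps that of Bax in the annotation, and shared exons were not examined. The labels do not say how the counting split reads between them, so the level of Bax is uncertain.

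Aen (ENSMUSG00000030609.18, chr7:78895854-78911209, plus strand) encodes a nuclease that p53 induces in apoptosis. In even-numbered mice it stood at 74.3 and 67.5 CPM in fresh cells, 59.2, 76.7 and 56.0 at pH 7.4 and 35.97, 43.4 and 51.2 at pH 6.9. The libraries at pH 6.9 were the lowest of these mice, without overlap. In odd-numbered mice it stood at 51.9 and 72.0 CPM in fresh cells, 74.9, 51.9 and 53.5 at pH 7.4 and 90.7 and 72.1 at pH 6.9, with overlap. It did not pass in either set (log2 0.43, adjusted p = 0.324, and -0.56, adjusted p = 0.189). Promoter stretches of Bax (chr7:45467065-45467124, minus strand) and Aen (chr7:78895912-78895971, plus strand) are shown beside those of Mdm2 and Ccng1, since these 4 and Cdkn1a were the members with a half-site match (capitals), 201 bases before the start of Bax and 10 after that of Aen.
Bax: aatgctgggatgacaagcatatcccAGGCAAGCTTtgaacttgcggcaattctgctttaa
Aen: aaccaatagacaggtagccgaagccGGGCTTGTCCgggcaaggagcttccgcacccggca

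Eda2r (ENSMUSG00000034457.10, chrX:97333840-97377216, minus strand) encodes a receptor of the TNF receptor family and was the least abundant in counts, at 0 to 26 per library, with 5 of the 15 libraries at 0. In odd-numbered mice it stood at 6.05 and 1.85 CPM in fresh cells, at 0 in all 3 libraries at pH 7.4 and at 3.70 and 3.29 at pH 6.9. The 0 counts at pH 7.4 allow up to 3 counts over the set, or 0.255 CPM. Against that floor Eda2r was 13.2-fold higher at pH 6.9, where the pooled level was 3.37 CPM from 30 counts, and fresh cells at 4.09 CPM from 33 counts were 16.0-fold higher. The floor covers the counting error of the 0 counts only. The counting error of the 30 and the 33 counts is not included. In even-numbered mice it was 1.28 and 5.03 CPM in fresh cells, 1.29, 0 and 0.159 at pH 7.4 and 1.16, 0 and 0.385 at pH 6.9. The rise at pH 6.9 in odd-numbered mice had an edgeR adjusted p of 0.0472. It was lost with limma-voom (0.0789), with the mouse number in the fit (0.092), and when pH 7.4 replicate 1 (0.0934), 3 (0.118) or 5 (0.0672) was left out. It was also lost without fresh replicates 2 (0.0539), 3 (0.0649), 5 (0.0598) or 6 (0.0592), pH 7.4 replicate 6 (0.0586) or pH 6.9 replicates 2 (0.0526) or 6 (0.0537), which are libraries of other sets. Without pH 6.9 replicates 1 or 5, Eda2r failed the filter on low counts and was not tested. The same held with 18 libraries and with the filter that asks for 5 CPM in 6 libraries. The difference between the sets of mice did not pass (0.0908).

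**Figure D3:**
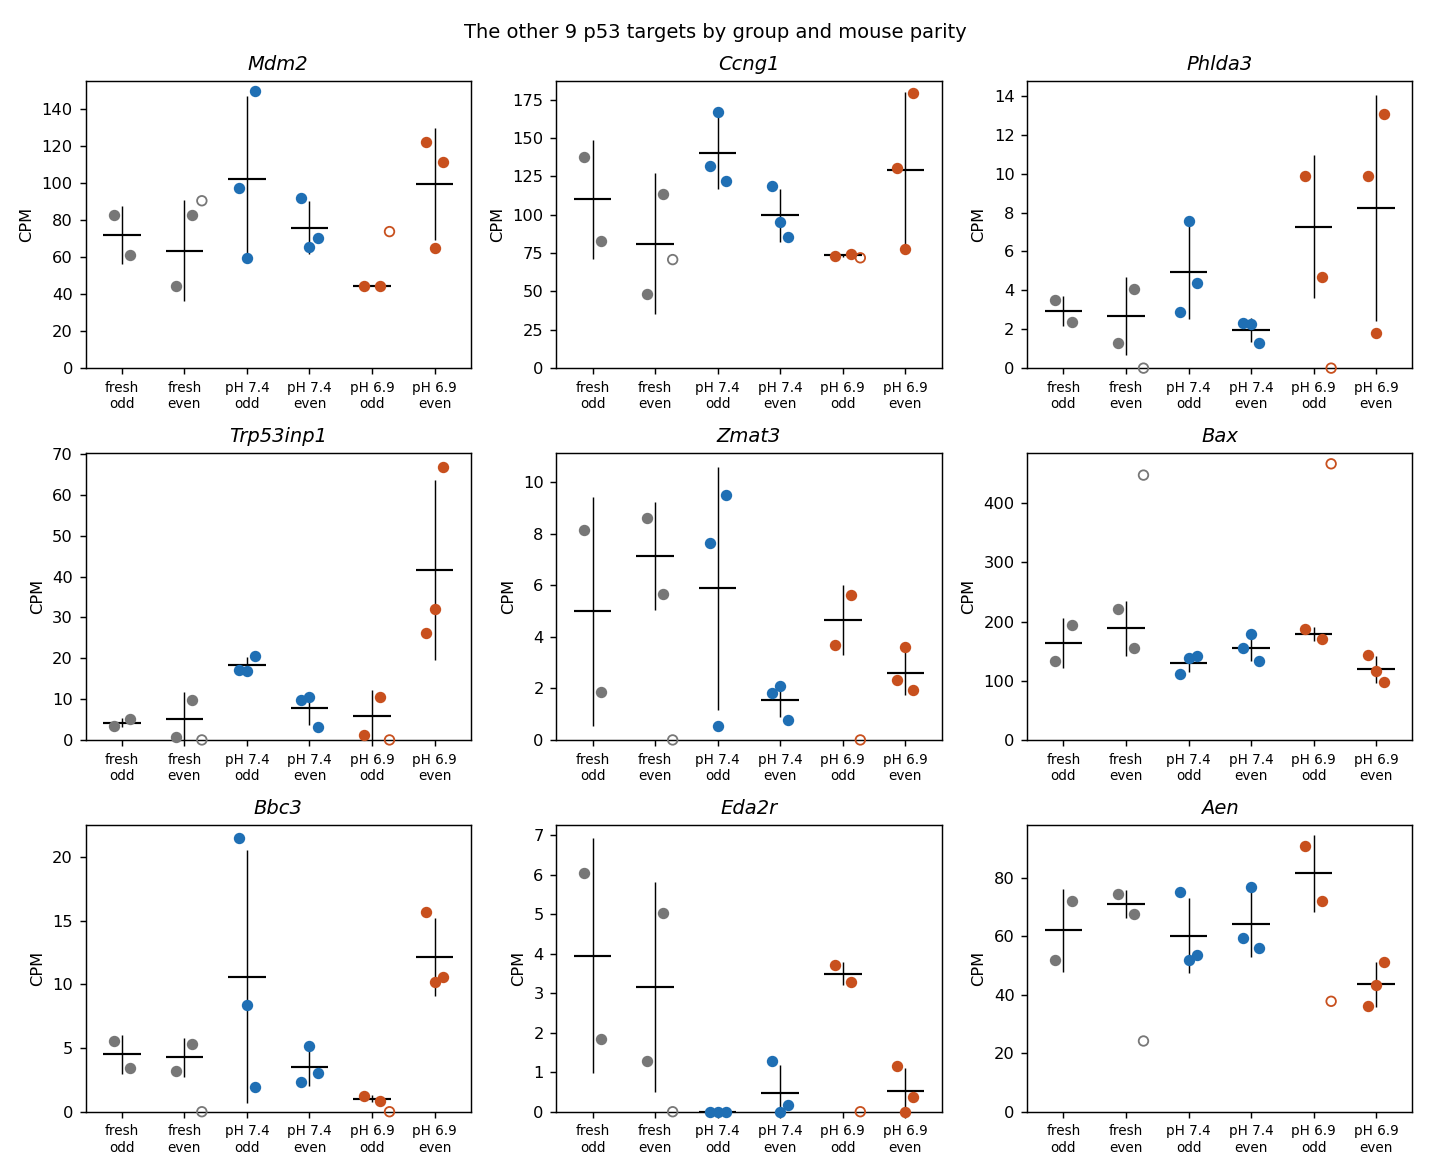
The other 9 members in CPM for each library, by group and mouse parity, each on its own scale. Filled points are the 15 libraries, lines are mean and SD, and open points are fresh replicate 4 and pH 6.9 replicate 3 (fresh replicate 1 is not drawn). Trp53inp1 and Bbc3 are high in pH 6.9 even (26.1 to 67.0 and 10.2 to 15.7), Eda2r is at 0 in pH 7.4 odd, and the open points of Bax lie at 448 and 467.

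Against fresh cells, Cdkn1a was the member that passed after culture at pH 7.4, in odd-numbered mice, and Cdkn1a and Trp53inp1 passed after culture at pH 6.9, in even-numbered mice. For pH 7.4 against fresh, Cdkn1a had a log2 fold change of 1.60 ± 0.30 in odd-numbered mice (edgeR adjusted p = 0.0383) and 0.21 ± 0.29 in even-numbered mice (0.822), and their difference of -1.38 ± 0.41 did not pass (0.242). The members called were 1, 0 and 0 of 10, where edgeR called 0.113%, 0.103% and 0.103% of genes, with 1122, 1317 and 1066 genes at an unadjusted p under 0.05. The rise was lost without fresh replicates 3 (0.0972) or 5 (0.311), pH 7.4 replicates 2 (0.0664), 3 (0.0683) or 6 (0.0528), or pH 6.9 replicates 2 (0.0541), 4 (0.062) or 6 (0.0637), and with 18 libraries (1). For pH 6.9 against fresh, the log2 fold change was 0.03 ± 0.31 in odd-numbered mice (0.978) and 2.22 ± 0.31 in even-numbered mice (0.000415), and their difference was 2.19 ± 0.43 (0.00366). Trp53inp1 rose by 3.00 ± 0.86 in even-numbered mice (0.0326), a call lost without fresh replicate 2 (0.211), without pH 6.9 replicate 6 (0.119) and with 18 libraries (0.112). With 18 libraries Cdkn1a had an adjusted p of 0.112 in even-numbered mice (log2 1.49) and 0.355 for the difference. The members called were 0, 2 and 1 of 10, where 0.600%, 10.9% and 12.7% of genes were called. The fresh and the cultured libraries used here also serve in the comparison of the cultures, so these values stand beside those above and are not a repeat of them.

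The expression of p53 itself and of its regulators was examined in the same libraries. In odd-numbered mice Trp53 had 258 ± 62.2 CPM at pH 6.9 (SD, n = 2) against 236 ± 3.00 at pH 7.4 (n = 3), and in even-numbered mice 237 ± 39.0 against 344 ± 33.6 (n = 3 each). Its log2 fold changes of 0.13 and -0.56 did not pass (edgeR adjusted p = 0.731 and 0.0676). Of 16 regulators of p53 tested, the odd-numbered mice had 2 up and 0 down and the even-numbered mice 0 up and 2 down, both times Npm1 and Rpl5. Over all genes tested, 11.1% and 6.75% were called in these sets, so the shares of regulators called lie near the background. For the difference between the sets, 2 of the 16 passed as more positive in even-numbered mice, Chek2 and Prkdc. Another 3 passed as more negative, Npm1, Rpl5 and Rpl11, beside 18.1% of all genes. Npm1, a nucleolar chaperone that binds Mdm2, was 2027 ± 129 CPM at pH 6.9 against 766 ± 134 at pH 7.4 in odd-numbered mice (log2 1.40, adjusted p = 0.0012) and 701 ± 152 against 1777 ± 128 in even-numbered mice (-1.36, 0.00138). Rpl5, a ribosomal protein that can restrain Mdm2, was 120 ± 12.3 against 52.2 ± 18.6 CPM (1.19, 0.00907) and 42.4 ± 3.49 against 107 ± 6.80 (-1.35, 0.00331). Both moved opposite to Cdkn1a in each set of mice. With all 18 libraries these calls were lost, with adjusted p of 0.0547 and 0.634 for Npm1 and 0.0835 and 0.589 for Rpl5, and for Rpl5 the fit without pH 6.9 replicate 5 gave 0.0666 in odd-numbered mice.

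Among 35 tested genes of a list of 40 other p53 targets, the odd-numbered mice had 0 up and 5 down and the even-numbered mice 3 up and 0 down, with median log2 fold changes of -0.35 and 0.30 against -0.08 and 0.04 over all genes. Beside the 11.1% and 6.75% of all genes called, these shares lie near the background. Sesn1, a sestrin that restrains mTORC1, was 68.8 ± 0.391 CPM at pH 6.9 against 127 ± 28.2 at pH 7.4 in odd-numbered mice (log2 -0.89, edgeR adjusted p = 0.019) and 179 ± 18.4 against 92.1 ± 12.5 in even-numbered mice (0.95, 0.00795). Plk3, a stress-responsive polo-like kinase, was 25.8 ± 3.39 against 71.9 ± 10.6 CPM (-1.46, 0.027) and 62.1 ± 31.4 against 22.8 ± 8.19 (1.43, 0.0197). Both thus had the direction of Cdkn1a in each set of mice. Abhd4 and Gadd45a, a growth-arrest and DNA-damage protein, also fell in odd-numbered mice, and Ak1, adenylate kinase, rose in even-numbered mice. Abhd4 was lost with 18 libraries (0.302). Gadd45a was lost with the mouse number in the fit (0.0895), with 18 libraries (0.972) and without pH 7.4 replicate 3 (0.103) or pH 6.9 replicates 1 (0.155) or 5 (0.103). Ak1 was lost with the mouse number in the fit (0.0597), with 18 libraries, and without pH 7.4 replicates 2 (0.101), 4 (0.0744) or 6 (0.186) or pH 6.9 replicates 4 (0.0737) or 6 (0.164). The change differed between odd and even mice for 7 of the 35, where 18.1% of all genes passed, with 6 more positive in even-numbered mice and 1, Perp, more negative. With all 18 libraries 0 of the list passed in either set (adjusted p = 0.314 and 1 for Sesn1, 0.272 and 1 for Plk3). In odd-numbered mice Sesn1 was lost without pH 6.9 replicates 1 (0.0935) or 5 (0.0959), and Plk3 without pH 7.4 replicate 1 (0.0686) or pH 6.9 replicates 1 (0.15) or 5 (0.0984). In even-numbered mice Sesn1 was lost without pH 7.4 replicate 6 (0.0611) or pH 6.9 replicate 6 (0.0542), and Plk3 without pH 7.4 replicates 2 (0.0973) or 6 (0.0581) or pH 6.9 replicate 6 (0.169). Leaving out each library in turn gave 2 to 5 of the list down in odd-numbered mice and 0 to 4 up in even-numbered mice. With the mouse number in the fit 3 were down and 2 up.

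Downstream of p21 lie the kinases it inhibits and the genes of mitosis that fall silent in arrested cells. Cdk4, the G1 kinase, was 1 of 12 G1/S genes that passed, at 1069 ± 9.07 CPM at pH 6.9 against 686 ± 86.1 at pH 7.4 in odd-numbered mice (log2 0.64, edgeR adjusted p = 0.0369) and 710 ± 162 against 1108 ± 123 in even-numbered mice (-0.66, 0.0277). Of 20 G2/M genes, 6 fell and 0 rose in odd-numbered mice, where Cdkn1a fell too, and 0 passed in even-numbered mice, where Cdkn1a rose, beside 11.1% and 6.75% of all genes. Ccnb2, cyclin B2, was 33.3 ± 24.4 CPM at pH 6.9 against 396 ± 48.8 at pH 7.4 in odd-numbered mice (adjusted p = 8.09e-05), and 346 ± 55.1 against 418 ± 48.1 in even-numbered mice. Cenpa, the centromeric histone, was 24.6 ± 23.5 against 184 ± 22.4 CPM in odd-numbered mice (0.000782) and 167 ± 19.2 against 291 ± 31.0 in even-numbered mice. In odd-numbered mice 1 of the 20 G2/M genes had a positive change at pH 6.9, and in even-numbered mice 3 had. Median log2 fold changes of the list were -1.17 and -0.60, against -0.08 and 0.04 over all genes. Low Cdkn1a and low G2/M genes thus occurred together in pH 6.9 odd, but low Cdkn1a did not always go with low G2/M genes. Fresh odd and pH 7.4 even, with mean Cdkn1a of 91.5 and 64.6 CPM, had mean Ccnb2 of 421 and 418 CPM. Against fresh odd, the G2/M list at pH 6.9 had a median log2 fold change of -2.02, while that of Cdkn1a was 0.03. A link between them was not tested. In even-numbered mice the list also leaned lower at pH 6.9, where Cdkn1a was higher. With all 18 libraries these calls were lost (0.102 for Ccnb2, 0.0977 for Cenpa), and leaving out each library in turn gave 2 to 12 G2/M genes down in odd-numbered mice. With the mouse number in the fit 3 were down, Ccnb2 and Cenpa among them, and Cenpf (0.075), Bub1b (0.0809) and Cdca3 (0.0847) were lost. Cdk4 was lost in odd-numbered mice without pH 7.4 replicates 1 (0.104) or 5 (0.0685) or pH 6.9 replicates 1 (0.131) or 5 (0.137), in even-numbered mice without pH 7.4 replicates 4 (0.104) or 6 (0.112) or pH 6.9 replicates 2 (0.0992) or 6 (0.146), and with 18 libraries (0.4 and 0.878). Of the other inhibitors of cyclin-dependent kinases, 0 of 5 tested passed in either set of mice, and 0 of 12 tested genes of the BCL2 family did. For the difference between the sets, 1 of the 5 (Cdkn2d) and 1 of the 12 (Bmf) passed, beside 18.1% of all genes. These calls were not checked under the alternatives.

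Markers of other blood cells also moved between the sets. The summed level of the granulocyte and monocyte list, with counts for 6 to 8 of its 11 genes, was 1966 to 5275 CPM at pH 7.4 in even-numbered mice. At pH 6.9 in these mice it was 193 to 203 CPM with 5 or 6 genes. In odd-numbered mice it was 135 to 298 CPM at pH 7.4, with 4 to 8 genes, and 321 to 387 at pH 6.9, with 5 or 6, and in fresh cells it reached 5692 in 1 library and was 237 to 417 in the other 3 of the 15. In even-numbered mice 4 of 6 tested genes of this list were called lower at pH 6.9 and 0 higher, beside 6.75% of all genes. They were Prtn3 (edgeR adjusted p = 0.0147), Ms4a3 (0.0378), Ctsg (0.0432) and Mpo (0.0485). With all 18 libraries 0 genes of the whole table were called in these mice. The other alternatives were not examined for the genes of this list. In odd-numbered mice 0 of the list passed. S100a8 and Ngp, genes of mature granules, were at 0 in all libraries of pH 7.4 even, and S100a8, S100a9, Ngp and Camp were at 0 in pH 6.9 even. The summed LT-HSC list was 1333 to 1788 CPM at pH 6.9 against 450 to 718 at pH 7.4 in even-numbered mice, and overlapped in odd-numbered mice at 1177 to 1677 against 1008 to 1673. A large part of that sum was Ly6a, which encodes Sca-1, at 787 to 1065 CPM at pH 6.9 against 110 to 337 at pH 7.4 in even-numbered mice, and it was the 1 of 14 tested LT-HSC markers that passed there (log2 2.16, edgeR adjusted p = 0.00539, and 0.526 with 18 libraries). Without Ly6a the sum was 546 to 723 CPM against 341 to 397. High Cdkn1a in pH 6.9 even thus went with a higher stem-cell sum and a lower granulocyte sum than in pH 7.4 even. In odd-numbered mice, where Cdkn1a fell, 3 of 5 tested antigen-presenting markers, the MHC class II genes H2-Aa (adjusted p = 0.0128), H2-Ab1 (0.00896) and H2-Eb1 (0.0251), were higher at pH 6.9. Irf8 and Flt3, the rest of the tested markers, had no positive change and did not pass. The sum of that list was 50.6 to 202 CPM against 36.4 to 69.6 at pH 7.4, with counts for 3 to 5 of its 6 genes, and Siglech was at 0 in all 15 libraries. All 3 were lost without pH 6.9 replicate 5 (0.112 for H2-Aa, 0.203 for H2-Ab1, 0.701 for H2-Eb1) and with 18 libraries (0.0681, 0.105 and 0.142), and H2-Eb1 also with limma-voom (0.0591), with the mouse number in the fit (0.162) and without pH 7.4 replicate 3 (0.0789). In even-numbered mice 0 of them passed, at 29.0 to 48.5 against 33.9 to 48.7 CPM. Of 3 tested mast cell and basophil markers Gzmb passed in odd-numbered mice (edgeR adjusted p = 0.0158), at 2.19 and 20.98 CPM against 0 in the 3 libraries at pH 7.4. It was the only 1 of the 3 with a positive change. Mcpt8 and Fcer1a were at 0 in both cultures of these mice, and Ms4a2 was at 0 at pH 6.9. The call of Gzmb was lost with limma-voom (0.0962) and under the mouse-number block (0.0635). Gzmb did not enter the fit with 18 libraries or some of those that left out 1 library. The sum of that list overlapped there, at 20.2 to 20.98 against 3.96 to 87.3 CPM, and in even-numbered mice was 2.32 to 23.7 at pH 6.9 against 37.9 to 179 at pH 7.4. The erythroid, megakaryocyte and lymphoid lists had 0 genes called in either set of mice. The part of any of these in the changes of the members was not tested.

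The members did not move as 1 block across the 15 libraries. Pearson's r between log2 CPM values, given as a description over libraries that share their set, index and depth, was positive for 23 of the 45 pairs of members, with a median of 0.08. With Cdkn1a, r was 0.752 for Trp53inp1, 0.627 for Ccng1, 0.583 for Phlda3, 0.574 for Bbc3 and 0.431 for Mdm2. It was -0.163 for Zmat3, -0.502 for Eda2r, -0.558 for Aen and -0.691 for Bax. Without the 2 libraries farthest from the median of Cdkn1a, pH 7.4 replicate 3 and pH 6.9 replicate 6, r was 0.731 for Trp53inp1, 0.532 for Mdm2 and -0.673 for Bax, and that of Zmat3 turned to 0.219. Trp53inp1 stood above 96.6% and Mdm2 above 80.5% of the 8248 genes ranked by r with Cdkn1a, and Bax above 7.6%. Among the members themselves, Mdm2 and Ccng1 had r = 0.715, Bax and Aen 0.577, and Trp53inp1 and Bax -0.742.

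**Figure D4:**
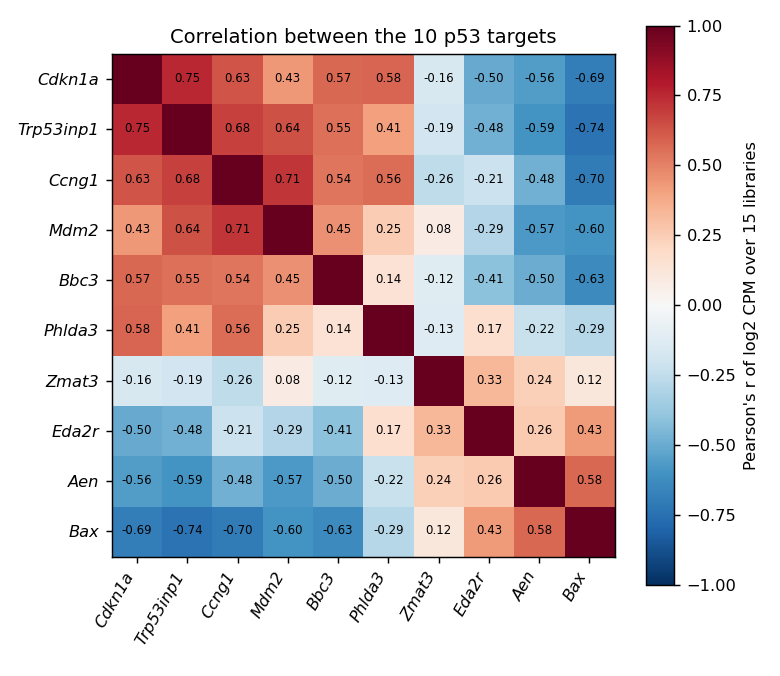
Pearson's r of log2 CPM between the 10 members over the 15 libraries, as colour and number. Cdkn1a, Trp53inp1, Ccng1, Mdm2, Bbc3 and Phlda3 have positive values with each other, and Bax and Aen have negative values with all 6 of them (-0.742 for Bax with Trp53inp1).

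The genes most like Cdkn1a over the 15 libraries were taken from 8248 genes with a mean of at least 10 CPM, with the members left out. They included Olfm2 (r = 0.94), Gclm (0.931), which encodes a subunit of the enzyme that starts glutathione synthesis, Id3 (0.93), Rab38 (0.93) and Slc40a1 (0.925), the iron exporter ferroportin, followed by Ifitm10 (0.918), Spry1 (0.916), Htra3 (0.914) and Cd81 (0.908). The most opposite were Nsun2 (-0.919), an RNA methyltransferase, Coq7 (-0.918), Psmb7 (-0.914), a proteasome subunit, Fabp5 (-0.914) and Pgk1 (-0.912), a glycolytic enzyme. The 15 libraries fall into the 6 sets of group and parity, so these values describe 6 sets more than 15 independent points. Without pH 7.4 replicate 3 and pH 6.9 replicate 6, r was 0.928 for Olfm2 and -0.921 for Nsun2.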

How the data were processed

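RNA of 100 LT-HSCs per library was measured in 18 libraries, 6 in each of 3 groups. Per the labels' protocols, libraries were made with SMART-Seq v4 and Nextera XT and read as paired ends of 75 bp, and the submitters' processing notes name kallisto, without a version, and mm10. The authors deposited estimated counts (expected counts), 1 whole number per gene symbol and library, and the step from transcripts to genes is not recorded in the labels.

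Counts were filtered with filterByExpr, TMM factors were computed, and groups were compared by the robust quasi-likelihood test of edgeR 4.0.16 (R 4.3.3), with Benjamini-Hochberg adjustment over all genes tested and a threshold of 0.05. The fit by group used 18 libraries (10104 genes). The fit by group and mouse parity used the 15 libraries with at least 100000 counts and 10000 genes (10659 genes). SE is the log2 fold change divided by the square root of F. CPM uses TMM-scaled totals over 18 libraries. For correlations a prior count of 2 was added before taking log2 CPM. The fits were tested on simulated data.

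Alternatives were DESeq2's size factors, the test of DESeq2 1.42.0, limma-voom (limma 3.58.1), no filter, a filter that asks for 5 CPM in 6 libraries, the mouse number as a block, the other set of libraries, and leaving out each library in turn. Where that leaves a set with 1 library, it is assumed to vary like the others. The design text names 6 mice, so the replicate numbers in the titles were taken as mouse numbers that pair libraries, which no label states. After removal of set means, 12 same-numbered pairs had correlations of -0.09 to 0.162 (median 0.04) and 25 other pairs -0.147 to 0.115 (median -0.01).

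The members, lists, tests within sets of mice and the choice of 15 libraries were made with earlier results of these data known. All members are described. Fold changes are given for Cdkn1a and for members that passed, with values for others that a sentence names. From the other lists up to 4 called genes with the smallest p are described. Further called genes are named where a call was lost or a direction differed. The 10 genes most like Cdkn1a and the 5 most opposite were taken by r, and 1 of them is not reported here. The p values measure the spread between these libraries. Promoter windows are from RefSeq on GRCm38.p6 and gene coordinates from GENCODE M21 on GRCm38. Reads carry no molecular identifiers, so floors (3 counts for a count of 0) cover counting error only.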

Additional observations from a re-analysis of the deposited data

Results flagged for a closer look

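In 4 of 30 groups of a member and a condition, 1 library lay far from the others of its group, in a test run without fresh replicate 1. The test is set to flag about 1 in 20 groups of normally distributed values. CPM values here include zeros, and each group joins odd-numbered and even-numbered mice, so that rate need not hold. Bax stood at 448 CPM in fresh replicate 4, where the next library had 221, and at 467 CPM in pH 6.9 replicate 3, where the next had 187. These are the libraries with 9408 and 8925 genes detected, and both are left out within sets of mice. Bbc3 stood at 21.5 CPM in pH 7.4 replicate 1, where the next had 8.40, and its fall at pH 6.9 in odd-numbered mice was not called without that library. Eda2r stood at 1.29 CPM in pH 7.4 replicate 2, on 5 counts, where the next had 0.159.

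The change between pH 6.9 and pH 7.4 differed between odd-numbered and even-numbered mice by edgeR's test of the difference (even minus odd, log2) for 4 members. The differences were 3.57 for Cdkn1a, 1.56 for Mdm2, 3.88 for Trp53inp1 and 5.17 for Bbc3. The change between pH 6.9 and fresh cells differed by 2.19 for Cdkn1a. Parity goes with the first index in each group, and the part of the index in these differences was not tested.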

How the results depend on the processing

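Over all mice, 0 members passed under each of the 25 alternatives in each comparison. Of the calls within sets of mice, the difference of Cdkn1a between the sets for pH was called under all 22 alternatives, with a highest adjusted p of 0.0191. These alternatives all keep the split by mouse parity, which was chosen with earlier results known, so they do not test that choice. Adding the 3 libraries that stood apart left 0 members called for pH 6.9 against pH 7.4 in odd-numbered mice (main count 4), 0 in even-numbered mice (2) and 1 for the difference (4). Against fresh cells it left 0 for pH 7.4 in odd-numbered mice (1), 0 for pH 6.9 in even-numbered mice (2) and 0 for the pH 6.9 difference (1). The genes called over the whole table went from 1181 to 65, from 719 to 0 and from 1924 to 173 for pH. With the mouse number as a replicate block, the members called for pH were 1 in odd-numbered mice (Mdm2, Bbc3 and Eda2r lost) and 1 in even-numbered mice (Trp53inp1 lost), and no other member's call changed. limma-voom called 1 and 4. Without a filter 2 members passed for pH 7.4 against fresh in odd-numbered mice, 1 for its difference between the sets and 3 for the pH 6.9 difference, where DESeq2 called 2.

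Leaving out 1 library at a time gave 0 to 4, 1 to 2 and 2 to 5 members for pH in the odd set, the even set and their difference. Against fresh cells it gave 0 to 1 for pH 7.4 in odd-numbered mice, and 1 to 3 for pH 6.9 in even-numbered mice and for its difference. Uncalled changes of Cdkn1a turned sign. For pH over all mice it ranged from -0.042 to 0.58 when 1 library was left out. For pH 7.4 against fresh in even-numbered mice it was -0.53 with 18 libraries and -0.13 to 0.67 when 1 was left out. For pH 6.9 against fresh in odd-numbered mice it was -0.07 with limma-voom and -0.19 to 0.24. The cause of these changes was not tested. Phlda3, Zmat3, Bbc3 and Eda2r rest on few counts, which limits their precision.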
